A study of Mus musculus with 19 samples.

Results

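The MEF2 transcription factors Mef2a, Mef2c and Mef2d were followed probe by probe on 19 mouse expression arrays. They are 3 of the 27845 gene names on the array, and all probes with these names were taken, which gave 8 of the 41174 gene probes: 3 for Mef2a, 2 for Mef2c and 3 for Mef2d. The RNA came from dissociated mouse hippocampal neurons at day 21 in culture, exposed for 6 h to vehicle (n = 5 arrays), to 100 µM AP5 (n = 5), to 100 nM NVP-AAM077 (called NVP, n = 4) or to 1 µM of a compound that the labels write as Ro25-4891 (called Ro25, n = 5). AP5 is a competitive antagonist of NMDA receptors, the calcium-permeable glutamate receptors of excitatory synapses, and NVP-AAM077 is a competitive antagonist that prefers receptors with a GluN2A subunit. The number in the name of the last compound is not that of the well-known GluN2B antagonist with the same prefix, so its identity is not settled here. The labels name no genotype, strain or age for the animals. Each array held neuron RNA in red and a universal mouse reference RNA in green, and all values below are log2 ratios of red over green unless stated otherwise. Nothing in the labels says whether the arrays of a group stem from separate cultures, and the p-values therefore describe the spread among these arrays, which may be technical.

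MEF2 proteins are DNA-binding factors of the MADS-box family that bind an AT-rich element, and the family was named for its role in muscle. In neurons they are known as calcium-responsive factors: calcineurin, CaM kinases and p38 and ERK5 MAP kinases act on them, and class IIa histone deacetylases such as HDAC4 and HDAC5 bind them and repress their targets. They are known in hippocampal neurons for roles in survival and in limiting the number of excitatory synapses. The title of the series names basal NMDA receptor activity, survival and a role for histone deacetylase 4.

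The promoter of Mef2a is shown because it holds the only match to the MEF2 consensus element in the 5 annotated start windows of the 3 genes. Windows ran from 250 bases before to 50 after the start of each transcript (RefSeq, GRCm38.p6), and there was 1 for Mef2a, 1 for Mef2d and 3 for Mef2c. The match begins 2 bases before the Mef2a start and runs past it. The 30 bases shown lie at chr7:67372841-67372870 on the minus strand, with the matching letters in capitals.
Mef2a start: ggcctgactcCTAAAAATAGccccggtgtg
The MEF2 consensus was searched on both strands and occurred in 3.19% of all 32851 windows of this length. The CRE letters TGACGTCA, bound by CREB, and the CArG box, bound by the MADS-box factor SRF, were not found in the windows of the 3 genes and occurred in 1.79% and 1.63% of all windows. The letters are a description of the sequence and not a mapped binding site.

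The probes lie at different places in each gene (positions on the mm8 assembly, as the array files give them). For Mef2a, on the minus strand of chromosome 7, A_52_P311841 (chr7:67113807-67113866) and A_52_P290579 (chr7:67113462-67113521) lie 285 bases apart and were both designed on the RefSeq transcript. The third Mef2a probe, A_52_P175157 (chr7:67110637-67110696), was designed on a cDNA clone and lies 2765 bases further toward the 3′ side. It is called the downstream Mef2a probe below, and the other two the upstream probes. For Mef2d, on the plus strand of chromosome 3, A_51_P504672 spans chr3:88254219-88254565, a span of 347 bases, and A_52_P334052 (chr3:88254330-88254389) lies inside that span. A_51_P394676 (chr3:88257782-88257841) lies 3216 bases further toward the 3′ side and is called the downstream Mef2d probe. Of the 40865 probes with a position, 12.4% span more than 60 bases. For Mef2c, on the plus strand of chromosome 13, A_52_P282110 (chr13:84055461-84055520) lies 85571 bases before A_51_P135802 (chr13:84141092-84141151). Which exon or untranslated region each probe reads was not resolved here.

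Of the 8 probes, 7 were measured: their red signal was well above background on 19 of 19 arrays, and no spot of theirs was marked by the scanner software or saturated. The Mef2c probe A_52_P282110 was not well above background in red on any array and was left out of the tests. Over the whole array, 24506 to 28507 probes per array were well above background in red, and 28638 probes entered the fit. Markers of pan-neuronal identity averaged 4.88 to 5.23 on vehicle arrays and 5.24 to 5.44 on AP5 arrays, and 3 of the 8 rose with AP5, beside 10.6% of 19201 genes higher and 7.04% lower. Of the excitatory neuron markers 5 of 12 rose (group means 2.82 ± 0.14 with vehicle and 3.04 ± 0.09 with AP5, SD, n = 5 each), and of the GABAergic markers 4 of 12 (2.83 ± 0.12 and 3.07 ± 0.08). The 10 astrocyte markers, all of them measured, averaged 3.06 to 4.27 with vehicle, 3.15 to 4.65 with AP5, 3.12 to 4.55 with NVP and 2.92 to 4.47 with Ro25, and 1 of the 10 rose with AP5. Microglial markers were at -2.24 to -1.90 relative to the reference, with C1qc, Itgam and P2ry12 not measured, and 3 of the 9 measured fell with AP5 (means -1.99 ± 0.08 with vehicle and -2.14 ± 0.08 with AP5). Of the oligodendrocyte lineage markers 2 of 10 rose with AP5, and of the endothelial and mural markers 1 of 7. The part of cell makeup in the results below was not tested, except where a value is given.

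With AP5, probes of 2 MEF2 genes changed in opposite directions. In a limma model over all kept probes, 1 of the 7 MEF2 probes rose and 1 fell against vehicle at an adjusted p under 0.05, where 17% of all kept probes changed, 10.2% upward and 6.76% downward. With 7 probes, 2 calls are no result about the family as a group. The downstream Mef2d probe rose 1.30-fold and the downstream Mef2a probe fell to 0.82 of its vehicle value. The Mef2c probe did not pass the test. With NVP or Ro25 against vehicle 0 of 7 probes passed, as did 0% of all kept probes.

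**Figure D1:**
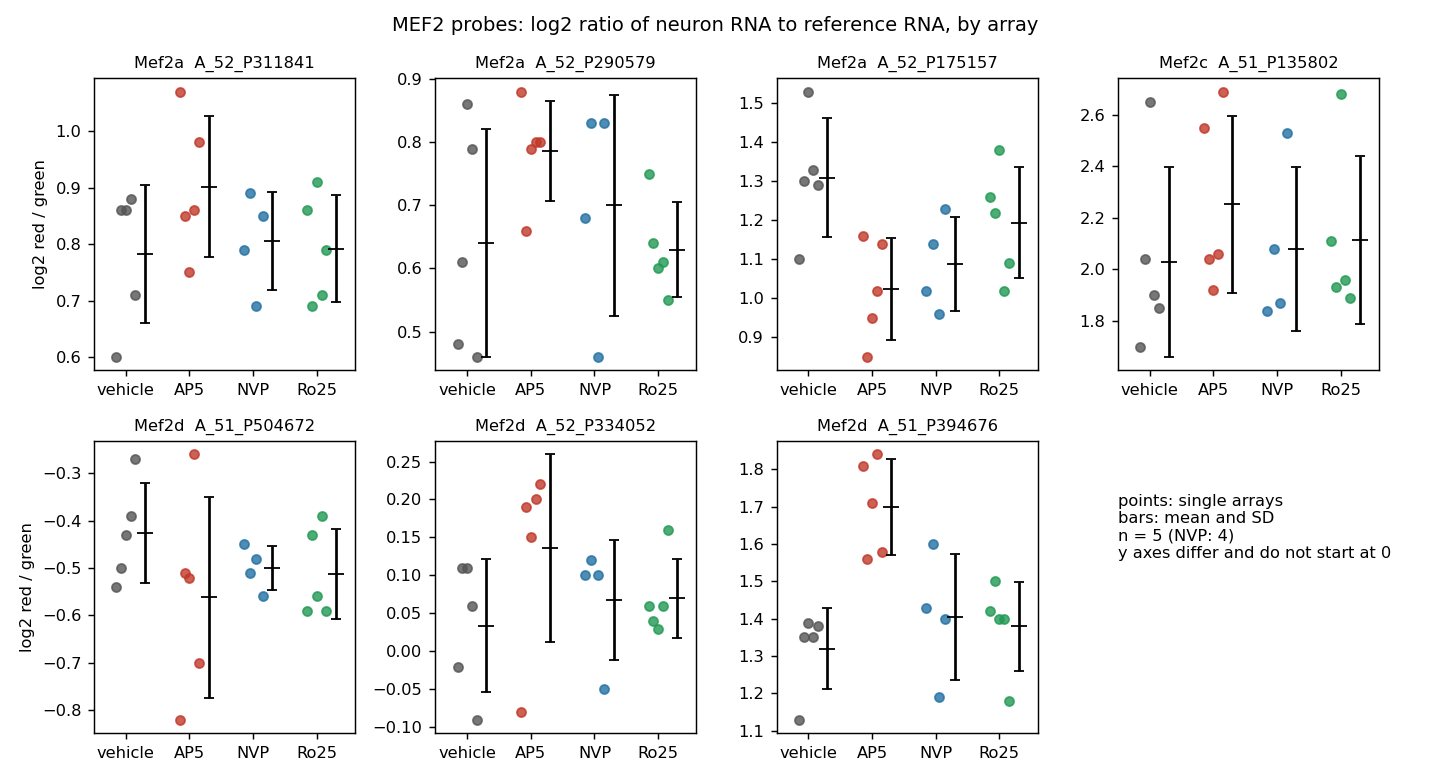
Log2 ratio of neuron RNA over reference RNA for the 7 measured MEF2 probes (y axes, which differ and do not start at 0), 1 point per array by treatment (x axes), with the mean and SD as bars (n = 5, NVP 4). The 5 AP5 arrays of Mef2d A_51_P394676 lie between 1.56 and 1.84, all above the vehicle arrays, and Mef2c A_51_P135802 has a high array in each group.

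Mef2d, like other family members a factor that histone deacetylases and calcineurin are known to act on, was read by 3 probes. On the downstream probe A_51_P394676 the AP5 arrays 1 to 5 gave 1.81, 1.56, 1.71, 1.84 and 1.58. The vehicle arrays gave 1.13, 1.35, 1.39, 1.35 and 1.38. Every AP5 array was above every vehicle array, which held for 11.4% of all kept probes in either direction.
The NVP arrays gave 1.43, 1.60, 1.19 and 1.40. The Ro25 arrays gave 1.42, 1.5, 1.40, 1.40 and 1.18. Both sets of arrays overlapped with vehicle, and the AP5 and Ro25 arrays did not overlap with each other, as for 6.49% of kept probes.

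The AP5 difference from vehicle of the downstream Mef2d probe was 0.38 on the log2 scale (SE 0.08, 95% interval 0.21 to 0.55, limma adjusted p = 0.00314), between group means of 1.70 ± 0.13 and 1.32 ± 0.11 (SD, n = 5 each). Kept probes with a log2 ratio within 0.25 of this probe's mean had a median AP5 change of 0.11. AP5 was also higher than Ro25 by 0.32 (SE 0.08, limma adjusted p = 0.0218), in a comparison in which 5.66% of kept probes changed, 4% upward and 1.67% downward. This call was lost without AP5 array 1, AP5 array 4 or Ro25 array 5 (limma adjusted p = 0.064, 0.0623 and 0.067). Against NVP the difference was 0.29 (SE 0.09, limma adjusted p = 0.065), where 3.73% of kept probes changed, and it passed without AP5 array 2, NVP array 2 or Ro25 array 5 (limma adjusted p = 0.0471, 0.0326 and 0.0497). NVP and Ro25 differed from vehicle by 0.09 (95% interval -0.09 to 0.27) and 0.06 (-0.11 to 0.23). Bulk RNA does not tell more RNA per cell from more cells of a type that holds it.

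No slide held both AP5 and vehicle arrays, so the AP5 arrays meet vehicle only through the slides that also held NVP and Ro25. AP5 and Ro25 arrays shared no slide either, nor did NVP and vehicle arrays. When slide entered as a fixed block, the Mef2d difference was 0.37 and no longer passed (limma adjusted p = 0.627), and as a random block it was 0.38 (limma adjusted p = 0.000743). The correlation within slides estimated for the random block was -0.08. That setting called 3986 of the 28638 kept probes higher and 2903 lower, against 2929 and 1937 without a block. Since AP5 and vehicle share no slide, the random block does not separate treatment from slide. The Mef2d difference between AP5 and Ro25 was 0.36 with slide as a fixed block and did not pass (limma adjusted p = 0.408). On slide 2, which held 1 AP5 and 2 NVP arrays, AP5 was higher by 0.27. In the green reference channel alone, which carries no neuron RNA, the probe differed by -0.05 (limma adjusted p = 0.353), and in the red channel alone by 0.30 (limma adjusted p = 0.0183). With log ratios scaled to 1 spread it was 0.22 (limma adjusted p = 0.128), and with marked spots kept in the background fit 0.34 (limma adjusted p = 0.068). It passed whichever 1 array was left out.

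The other Mef2d probes did not pass the test. A_52_P334052 gave 0.14 ± 0.13 with AP5 and 0.03 ± 0.09 with vehicle (SD, n = 5 each), a difference of 0.10 (limma adjusted p = 0.265). A_51_P504672 gave -0.56 ± 0.21 and -0.43 ± 0.10, a difference of -0.13 (limma adjusted p = 0.283), and its AP5 arrays ranged from -0.82 to -0.26, around all 5 vehicle arrays. In the green channel alone this last probe was higher on AP5 arrays, by 0.13 (limma adjusted p = 0.0346). In the red channel alone, which carries the neuron RNA, it differed by 0.06 (limma adjusted p = 0.753). The log2 ratio of this probe differed from vehicle by -0.07 with NVP and -0.08 with Ro25.

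Mef2a, the family member known from rat cerebellum for a role in postsynaptic differentiation, was also read by 3 probes. On the downstream probe A_52_P175157 the vehicle arrays gave 1.10, 1.30, 1.53, 1.33 and 1.29. The AP5 arrays gave 1.16, 0.85, 0.95, 1.02 and 1.14. Vehicle array 1 lay within the range of the AP5 arrays and the other 4 vehicle arrays lay above it.
The NVP arrays gave 1.02, 1.14, 0.96 and 1.23. The Ro25 arrays gave 1.26, 1.22, 1.38, 1.02 and 1.09. The group means ran from AP5 (1.02 ± 0.13) over NVP (1.08 ± 0.12) and Ro25 (1.19 ± 0.14) to vehicle (1.31 ± 0.15), and each neighbouring pair in that order overlapped. The slides followed the same order. AP5 arrays were on slides 1 and 2 and NVP arrays on slides 2 and 3. Ro25 arrays were on slides 3 and 4 and vehicle arrays on slides 4 and 5. An order by treatment was not separated from an order by slide.

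With AP5 the downstream Mef2a probe was lower than with vehicle, by a log2 difference of -0.29 (SE 0.08, 95% interval -0.46 to -0.11, limma adjusted p = 0.0244). Kept probes of like ratio had a median AP5 change of 0.10. The NVP difference of -0.23 (95% interval -0.41 to -0.04) did not pass (limma adjusted p = 0.494), nor did the Ro25 difference of -0.12 (-0.29 to 0.06). AP5 differed from NVP by -0.06 (95% interval -0.25 to 0.13) and from Ro25 by -0.17 (-0.35 to 0.01). The Mef2a call was lost without AP5 array 2, AP5 array 3 or vehicle array 3 (limma adjusted p = 0.0642, 0.0568 and 0.0692), in the authors' deposited table (-0.25, limma adjusted p = 0.0631) and in the red channel alone (-0.28, limma adjusted p = 0.0711). It was also lost in the deposited ratios of the scanner files, where the difference was -0.19 (limma adjusted p = 0.253), with marked spots kept in the background fit (-0.31, limma adjusted p = 0.0928) and with the replicate block (-0.29, limma adjusted p = 0.0528). On slide 2 the AP5 array was higher than the 2 NVP arrays by 0.16, against -0.06 over all arrays. On slide 3 NVP less Ro25 was 0.04, against -0.11 over all arrays. On slide 4 Ro25 less vehicle was -0.07, against -0.12 over all arrays. A fixed slide block turned the direction of the AP5 difference from vehicle, to 0.12 (limma adjusted p = 0.895).

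The upstream Mef2a probes did not pass the test in any comparison. A_52_P290579 gave 0.79 ± 0.08 with AP5, 0.70 ± 0.18 with NVP, 0.63 ± 0.07 with Ro25 and 0.64 ± 0.18 with vehicle. A_52_P311841 gave 0.90 ± 0.12, 0.81 ± 0.08, 0.79 ± 0.09 and 0.78 ± 0.12 in the same order. Their AP5 differences from vehicle were 0.15 (95% interval -0.03 to 0.32) and 0.12 (-0.02 to 0.27), opposite in sign to that of the downstream probe.

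**Figure D2:**
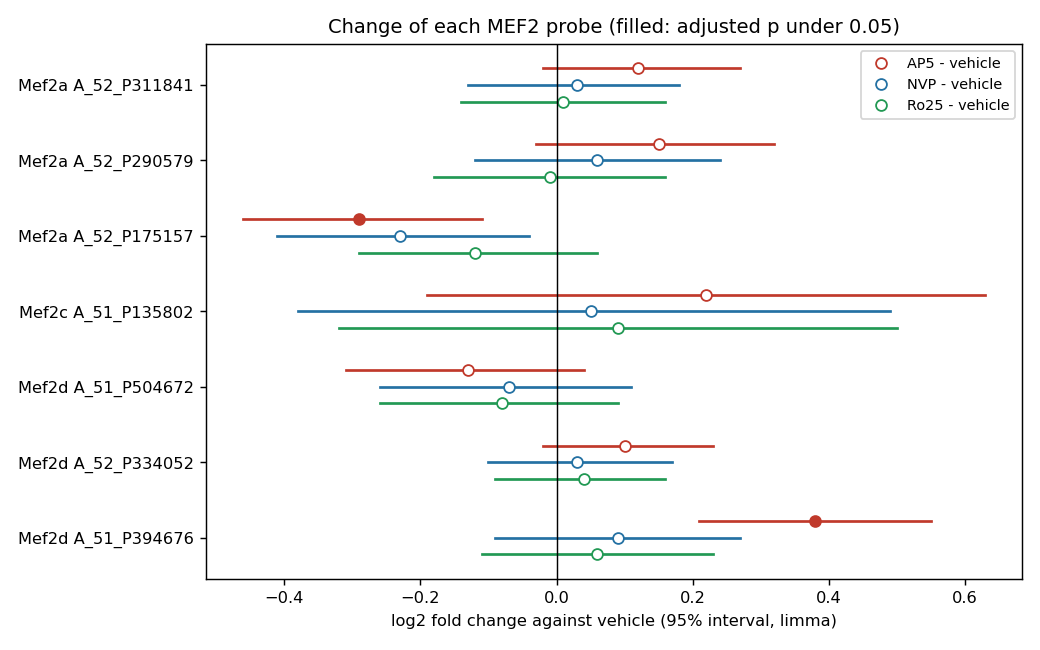
Log2 fold change against vehicle (x axis) of each of the 7 measured MEF2 probes (y axis) for AP5, NVP and Ro25, with 95% intervals from limma; filled points have an adjusted p under 0.05. The filled points are AP5 for Mef2a A_52_P175157 at -0.29 and for Mef2d A_51_P394676 at 0.38, and the intervals of Mef2c A_51_P135802 are the widest shown.

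Whether probes of 1 gene changed unequally was tested on the difference between their log2 ratios on the same array, in which only the change between groups is read. This test was planned when earlier results of these data on probe disagreement were known. The share of same-gene probe pairs over the whole array that change unequally or do not overlap was not counted. Whether the MEF2 pairs are unusual is therefore not known. The paired probes differ in mean log2 brightness over both channels. The downstream Mef2a probe was at 10.59 and the upstream ones, A_52_P290579 and A_52_P311841, at 7.16 and 7.76. For Mef2d the downstream probe was at 13.89, and A_51_P504672 and A_52_P334052 at 7.45 and 7.22. The Mef2c probe below background was at 6.05. The part of brightness in the differences below was not tested. The downstream Mef2a probe less the upstream probe A_52_P311841 was 0.09, 0.01, 0.19, 0.16 and 0.16 on the AP5 arrays. It was 0.50, 0.45, 0.66, 0.45 and 0.58 on the vehicle arrays, all above the AP5 arrays.
On the NVP arrays it was 0.23, 0.25, 0.26 and 0.38, between the ranges of AP5 and vehicle and overlapping with neither. On the Ro25 arrays it was 0.40, 0.53, 0.47, 0.31 and 0.30, overlapping with vehicle.
The differences from vehicle were -0.41 for AP5 (exact permutation test, two-sided, p = 0.00794, adjusted p = 0.0286 over 18 tests), -0.25 for NVP (exact p = 0.00794, adjusted p = 0.0286) and -0.13 for Ro25 (exact p = 0.0873, adjusted p = 0.175). The smallest p that these group sizes allow is 0.00794. Vehicle shared no slide with AP5 or NVP, and slide was not part of this test, so its p-values do not separate treatment from slide. With slide as a fixed block in limma, the AP5 difference from vehicle was 0.12 for the downstream Mef2a probe. It was 0.27 for A_52_P311841 and 0.37 for A_52_P290579, and none passed. On slide 2 the 1 AP5 array was at 0.16 and the 2 NVP arrays at 0.23 and 0.26.

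Against the other upstream Mef2a probe, A_52_P290579, the same test gave -0.43 for AP5 and -0.29 for NVP (exact permutation p = 0.00794 and adjusted p = 0.0286 for both) and -0.11 for Ro25 (exact permutation adjusted p = 0.338). Here the AP5 arrays lay at 0.16 to 0.35 and the NVP arrays at 0.30 to 0.50, so that these groups overlapped, and both lay below the vehicle arrays at 0.55 to 0.84. On slide 2 the AP5 array was at 0.35, between the 2 NVP arrays at 0.34 and 0.50. Between the upstream probes the differences did not pass, at 0.03, 0.03 and -0.02 (exact permutation adjusted p of 0.752 to 0.807). The AP5 differences kept an exact permutation adjusted p of at most 0.0476 when any 1 array was left out. The NVP differences rose to an adjusted p of 0.0536 to 0.103 by exact permutation whenever an NVP or a vehicle array was left out, where fewer arrays also raise the smallest p.

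For Mef2d, A_51_P504672 less the downstream probe A_51_P394676 was -2.62, -2.06, -2.23, -2.10 and -2.27 with AP5. With vehicle it was -1.67, -1.85, -1.82, -1.74 and -1.65, so that the groups did not overlap. As for Mef2a, the share over all such probe pairs was not counted. The difference was -0.51 (exact permutation p = 0.00794, adjusted p = 0.0286), against -0.16 for NVP and -0.14 for Ro25 (exact permutation adjusted p = 0.243 and 0.143). A_52_P334052 less the downstream probe differed by -0.28 with AP5 (exact permutation p = 0.0397, adjusted p = 0.119), and A_51_P504672 less A_52_P334052 by -0.24 (exact permutation p = 0.0476, adjusted p = 0.122). The last passed without AP5 array 4, at -0.29 (exact permutation adjusted p = 0.0476). In the red channel alone the Mef2d difference of -0.51 became -0.23 (exact permutation adjusted p = 0.184). In the deposited ratios none of the 5 called differences passed, with exact permutation adjusted p from 0.107 to 0.486.

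**Figure D3:**
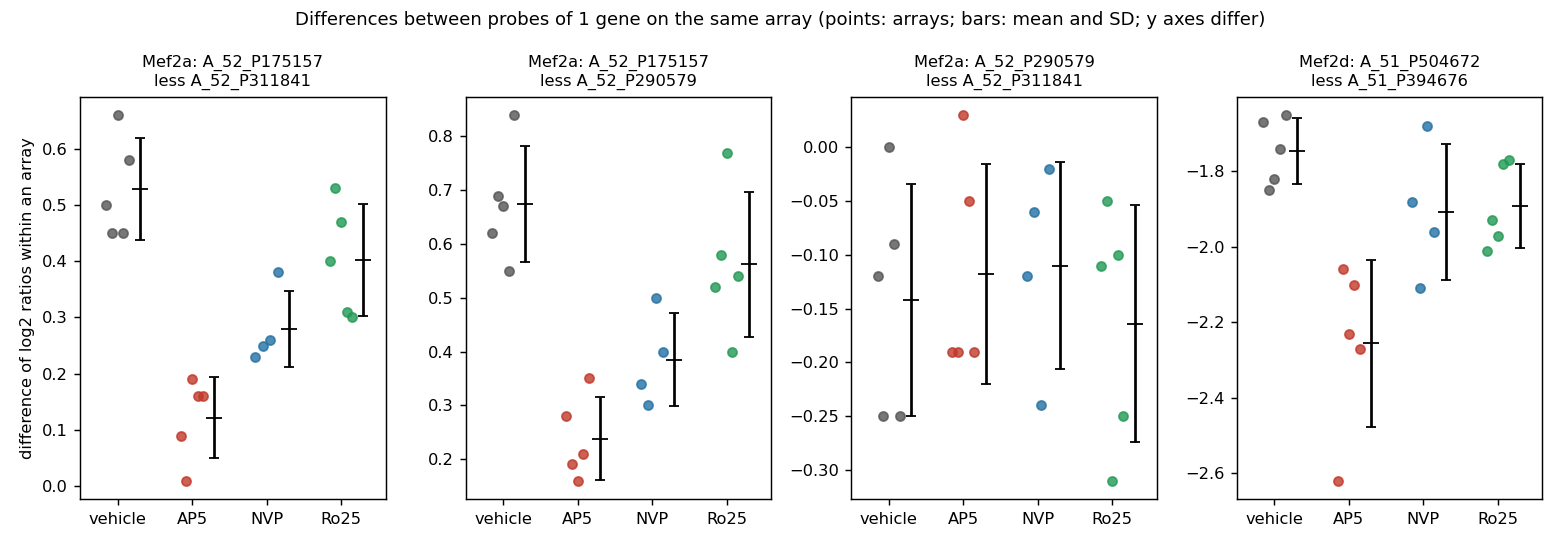
Difference between the log2 ratios of 2 probes of the same gene on the same array (y axes, which differ), 1 point per array by treatment (x axes), with the mean and SD as bars. For Mef2a A_52_P175157 less A_52_P311841 the AP5 arrays reach at most 0.19 and the vehicle arrays lie at 0.45 or above, while the 2 upstream Mef2a probes show no such split.

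Mef2c, the MEF2 factor that is abundant in cortical and hippocampal neurons and whose loss in mice changes synapse number and behaviour, varied within groups. On A_51_P135802 the vehicle arrays gave 1.70, 2.04, 2.65, 1.90 and 1.85. The AP5 arrays gave 2.55, 2.04, 1.92, 2.06 and 2.69. Each group held at least 1 array of 2.53 or more, and no array lay between 2.11 and 2.53.
The NVP arrays gave 1.84, 2.08, 1.87 and 2.53. The Ro25 arrays gave 2.11, 1.93, 2.68, 1.96 and 1.89. The SD within groups was 0.34, at the 97.3 percentile of kept probes, whose median was 0.12.
The differences of the Mef2c probe from vehicle were 0.22 for AP5 (SE 0.20, 95% interval -0.19 to 0.63, limma adjusted p = 0.471), 0.05 for NVP (-0.38 to 0.49) and 0.09 for Ro25 (-0.32 to 0.50), so changes of the size seen for Mef2d lay inside these intervals.

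The high Mef2c arrays were AP5 1, AP5 5, NVP 4, Ro25 3 and vehicle 3. The last 4 of these are the 4 arrays lowest in the mean of the 10 astrocyte markers, at 3.15, 3.12, 2.92 and 3.06. The next array in that order, vehicle 2, was at 3.89, and AP5 1 was at 4.01. AP5 1 was thus high in Mef2c without being low in the astrocyte markers.
Without the 4 arrays the AP5 difference of the Mef2c probe was 0.27 (SE 0.11, limma adjusted p = 0.127). With the astrocyte mean as a covariate, an alternative chosen after seeing the data, it was 0.34 (SE 0.08, limma adjusted p = 0.00265). The same settings left the downstream Mef2d probe at 0.43 and 0.39 (limma adjusted p = 0.00726 and 0.00135) and the downstream Mef2a probe at -0.26 and -0.24 (limma adjusted p = 0.0359 and 0.00247).

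**Figure D4:**
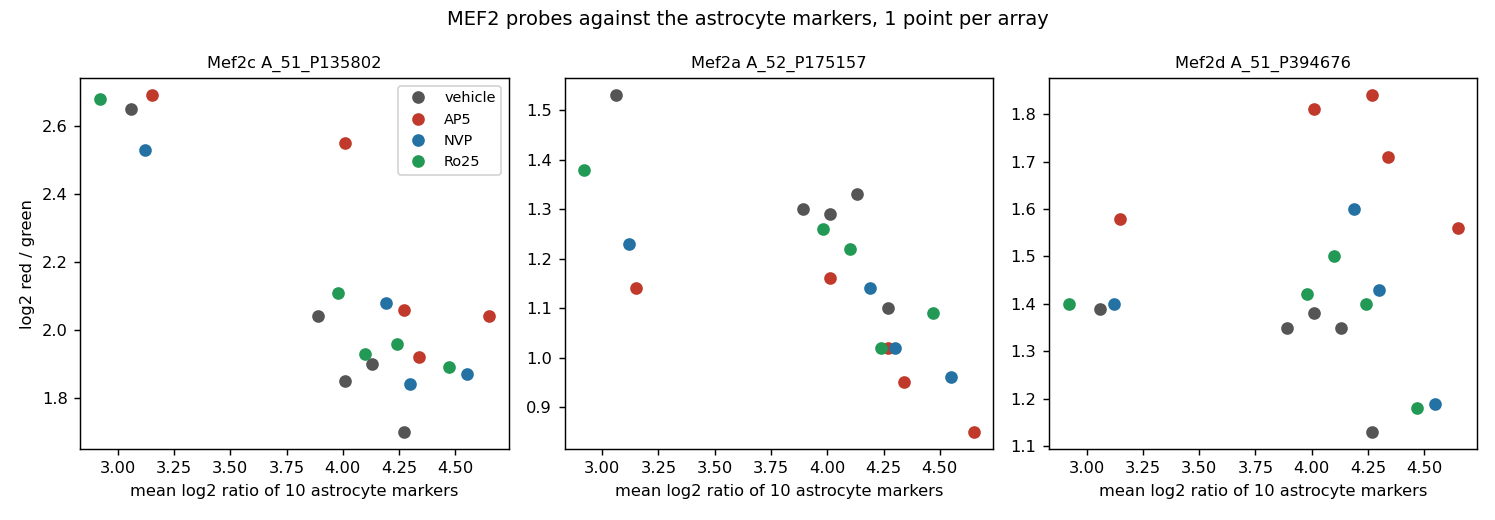
Log2 ratio of 3 MEF2 probes (y axes) against the mean log2 ratio of 10 astrocyte markers (x axes), 1 point per array and coloured by treatment. The 4 arrays at 3.15 or below on the x axis hold Mef2c values of 2.53 or more, and AP5 array 1 is the other high Mef2c array.

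The 3 genes followed each other to different degrees across arrays. After the group means were removed, the Mef2c probe and the downstream Mef2a probe had a Pearson correlation of 0.87 over the 19 arrays, and the Mef2c probe and the downstream Mef2d probe had 0.21. The upstream Mef2a probes correlated with the downstream one at 0.71 and 0.78 within groups but at 0.19 and 0.27 over all arrays, groups included. These arrays share the 4 of low astrocyte signal, and the correlations are descriptions.
Among the brightest probes of 15254 genes, the log2 ratio most like the downstream Mef2a probe over the 19 arrays was that of Tiam1, a guanine nucleotide exchange factor for Rac (r = 0.93), followed by Foxj3 (0.91), Rhob, Ankrd50 and Dock11 (0.90 each). For Mef2c it was Cdkl2 (r = 0.96), followed by Matn2, Myo18b, Ier5 and Prickle1 (0.95 each). For Mef2d it was Trank1 and Cul4a (r = 0.94), followed by Ccp110, Hmx1 and Iqgap2 (0.93 each).

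Partners and regulators of MEF2 mostly did not pass the test with AP5. Of 30 measured, 1 rose, 3 fell and 26 did not pass, with a median log2 fold change of -0.05, beside 10.6% of 19201 genes higher, 7.04% lower and a median of 0.01. AP5 and vehicle share no slide, and with slide as a fixed block 0 of the 30 passed in limma (5 at an unadjusted p under 0.05), while over all kept probes 11 of 28638 passed. A random slide block, added for the lists after seeing the data, gave 1 higher and 4 lower. Over all 28638 kept probes it gave 3986 higher and 2903 lower, more than without a block (2929 and 1937). Among the class IIa histone deacetylases, Hdac4 rose from 0.40 ± 0.19 to 0.86 ± 0.13 (SD, n = 5 each), a difference of 0.46 (limma adjusted p = 0.0138). Hdac5 fell from 0.76 ± 0.07 to 0.19 ± 0.03, by 0.57 on the log2 scale (limma adjusted p = 1.71e-07). The groups did not overlap for either gene, as for 11.4% of all kept probes in either direction. Hdac9, which MEF2 is also known to induce in muscle, fell from 3.91 ± 0.42 to 3.07 ± 0.34 (limma adjusted p = 0.0104), with overlapping groups. Hdac7 differed by -0.11 (limma adjusted p = 0.145). In the fixed slide block Hdac4 differed by 0.88 (limma adjusted p = 0.489), Hdac5 by -0.46 (limma adjusted p = 0.407) and Hdac9 by -0.47 (limma adjusted p = 0.827).
The calcineurin-regulated factor Nfatc4 fell by 0.35 on the log2 scale (limma adjusted p = 0.00138), and differed by -0.18 with slide as a fixed block (limma adjusted p = 0.778). The calcineurin subunits Ppp3ca, Ppp3cb and Ppp3r1 differed by -0.03, 0.19 and -0.32, the MAP kinases Mapk7 and Mapk14 by 0.17 and -0.10, and the coactivators Ep300 and Crebbp by 0.03 and 0.06; none passed.

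Genes reported as MEF2 targets in neurons or muscle changed in both directions with AP5. Of 16 genes, 5 rose, 7 fell and 4 did not pass, with a median log2 fold change of -0.03, beside 10.6% of all genes higher and 7.04% lower. With slide as a fixed block 0 of the 16 passed in limma (4 at an unadjusted p under 0.05). With slide as a random block 5 rose and 7 fell, beside 3986 higher and 2903 lower of 28638 kept probes. The falling genes were led by Nr4a1, an activity-induced nuclear receptor and a classic MEF2 target, from -1.01 ± 0.19 to -2.46 ± 0.12 (limma adjusted p = 4.22e-09). The neurotrophin gene Bdnf fell by 1.79 on the log2 scale (SE 0.13, limma adjusted p = 5.28e-08), and Arc, which acts in removal of AMPA receptors from synapses, fell by 1.16 (SE 0.14, limma adjusted p = 1.22e-05). In the fixed slide block Nr4a1 differed by -1.46 (limma adjusted p = 0.161), Bdnf by -1.14 (limma adjusted p = 0.412) and Arc by -0.74 (limma adjusted p = 0.536). These are also genes that NMDA receptors and other activity-dependent factors are known to control.
Among the rising genes, Ppargc1a, a coactivator of mitochondrial genes, rose by 0.52 (limma adjusted p = 0.000114), Jun by 0.54 (limma adjusted p = 2e-04) and the potassium channel gene Kcna1 by 0.63 (limma adjusted p = 0.000731). The list members Homer1, Lgi1, Nr4a3 and Ube3a had differences of -0.04 to 0.02 that did not pass. The fixed slide block left Ppargc1a at 0.30 (limma adjusted p = 0.638), Jun at 0.54 (limma adjusted p = 0.543) and Kcna1 at 0.70 (limma adjusted p = 0.489). Hdac9 stands in both lists.

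Of 6 measured MADS-box relatives and cofactors, Srf fell by 0.22 on the log2 scale (limma adjusted p = 0.0295) and Mkl1, a coactivator of SRF, rose by 0.24 (limma adjusted p = 0.0343), with a median of -0.06 over the 6 genes, beside 10.6% of all genes higher and 7.04% lower. With slide as a fixed block 0 of the 6 passed in limma (1 at an unadjusted p under 0.05), Srf turned to 0.09 (limma adjusted p = 0.89) and Mkl1 was at 0.66 (limma adjusted p = 0.388). The random slide block gave 1 higher and 2 lower, beside 3986 higher and 2903 lower of 28638 kept probes. The count of 2 was 0 without AP5 array 4 or vehicle array 3, and 1 without any other AP5 array or without vehicle array 1, 2 or 4. The fourth family member Mef2b was read by a pair of probes of negative log2 ratio. Its brighter probe A_51_P330580 gave -2.17 ± 0.09 with AP5 and -2.01 ± 0.13 with vehicle, a difference of -0.16 (limma adjusted p = 0.118), and A_52_P9878 differed by -0.24 (limma adjusted p = 0.0182). The last probe was well above background in red on 3 of the 5 AP5 and 3 of the 5 vehicle arrays.

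**Figure D5:**
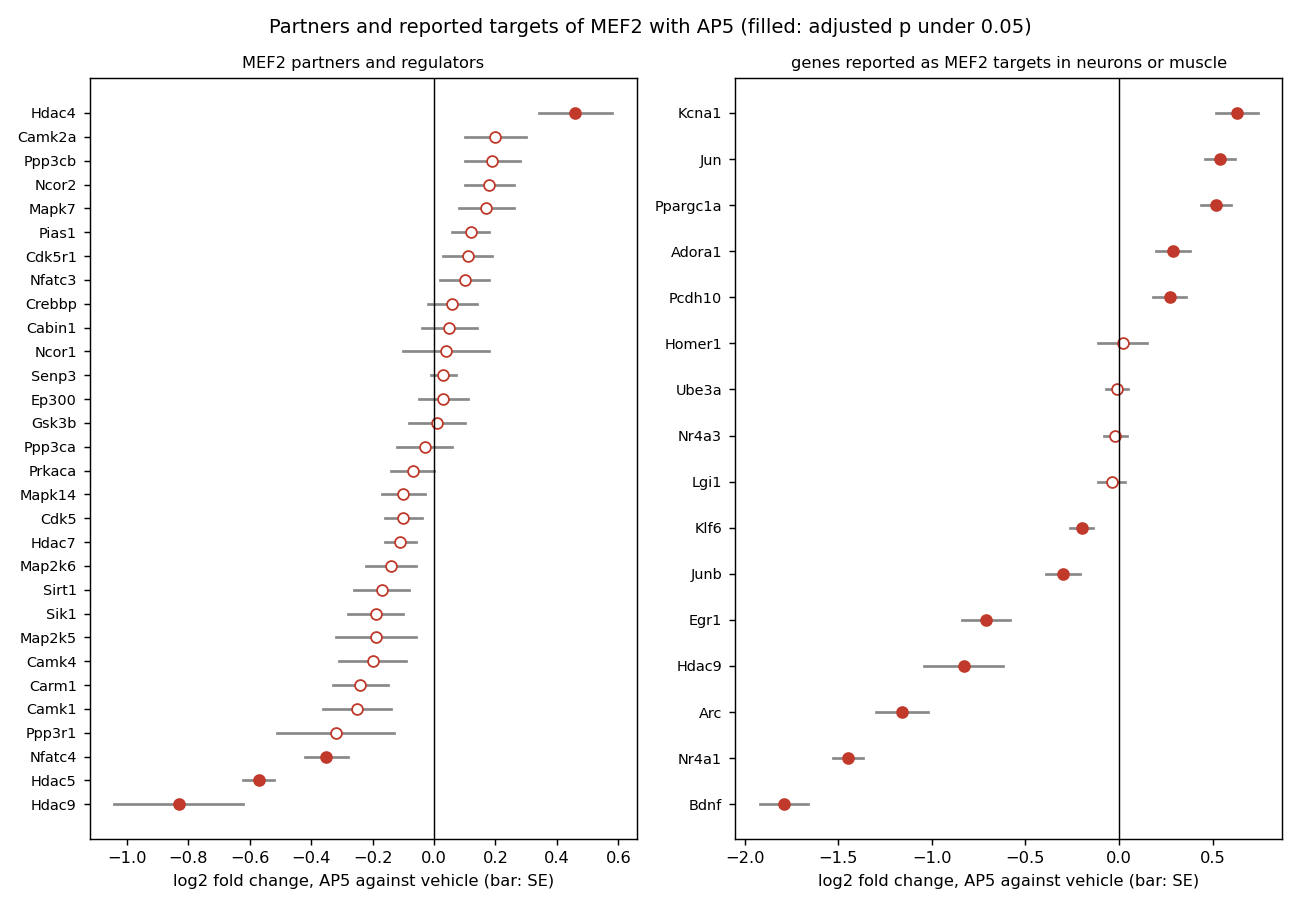
Log2 fold change of AP5 against vehicle (x axes, bars are the SE) for 30 MEF2 partners and regulators and for 16 genes reported as MEF2 targets (y axes); filled points have an adjusted p under 0.05 in limma. In the first panel Hdac4 is the only filled point to the right, and in the second 5 filled points lie to the right of 0 and 7 to the left.

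NVP and Ro25 gave no call among the MEF2 probes or the lists. In limma, 1 of the 7 MEF2 probes had an unadjusted p under 0.05 with NVP against vehicle and 0 with Ro25, while 2333 and 1631 of the 28638 kept probes had one. Among the partners 2 of 30 with NVP and 1 of 30 with Ro25 had an unadjusted p under 0.05, and among the reported targets 6 and 7 of 16. Hdac5 differed by -0.19 with NVP (SE 0.05, limma adjusted p = 0.351) without overlap of the groups, as did 2.62% of kept probes, and by -0.08 with Ro25. Hdac4 differed by 0.00 with NVP (SE 0.13) and by -0.07 with Ro25 (SE 0.12). NVP and Ro25 did not differ from each other in any MEF2 probe after adjustment, with 0 of 7 at an unadjusted p under 0.05 and log2 differences from -0.11 to 0.07. The comparisons with vehicle share their vehicle arrays, and no slide held both NVP and vehicle arrays.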

How the data were processed

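Total RNA was measured on 19 two-colour Agilent arrays. The deposited spot intensity of both channels was extracted by the authors with Feature Extraction 9.5.3.1, per the file headers, whereas version 11.0 stands in the submitters' processing notes. The deposited log10 ratio had been background-subtracted and dye-normalized, per the file headers. The authors' processed values are log2 ratios; how it was scaled and centred is not given in the sources used here, its column medians are near 0, and it follows the ratios computed here closely. The alternatives include both.

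Marked spots were left out, the background was corrected with normexp (offset 50), and log2 ratios were normalized by loess within arrays. Spots of a probe were averaged. Probes were kept with red well above background on at least 4 arrays and at least 2 unmarked values per group. Groups were compared in limma 3.58.1 (R 4.3.3, data.table in version 1.17.8, statmod in version 1.5.0) over all 19 arrays, two-sided, with Benjamini-Hochberg adjustment over 28638 probes within each comparison. The number of arrays limits the precision. On simulated data with 100 probes changed by 0.5, beside others changed by more, the AP5 comparison recovered 81% of them. The simulated noise was independent between arrays and held no slide effect. The 81% therefore does not give the power for the MEF2 probes. Genes were named through the array annotation and the RefSeq table of GRCm38.p6, and a listed gene by its brightest kept probe; from each list up to 3 called members per direction, Hdac4 and Hdac5 were to be named, and others were added after their values were seen. Some genes of the target list are not reported here. The members and lists were chosen, and the test of probe differences was planned, with earlier results of these data known.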

Additional observations from a re-analysis of the deposited data

Results flagged for a closer look

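Dixon's test was run in 28 groups of 4 or 5 arrays (7 probes in 4 treatments), and chance marks about 1 in 20 groups. An array stood apart from the rest of its group in 5 of them. On the downstream Mef2d probe A_51_P394676 vehicle array 1 was at 1.13, below the other vehicle arrays at 1.35 to 1.39. On Mef2d A_52_P334052 AP5 array 1 was at -0.08 (others 0.15 to 0.22), NVP array 4 at -0.05 (others 0.10 to 0.12) and Ro25 array 5 at 0.16 (others 0.03 to 0.06). On Mef2c A_51_P135802 Ro25 array 3, the array lowest in astrocyte markers, was at 2.68 (others 1.89 to 2.11).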

How the results depend on the processing

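Of the MEF2 probes, 2 were called with AP5 against vehicle. The count was 0 with marked spots kept in normexp, with slide as a fixed block and for the mean of a gene's probes. It was 1, the downstream Mef2d probe, with the deposited ratios, the authors' table (of 3 probes), red alone and the replicate block. Log ratios scaled to 1 spread also left 1, the downstream Mef2a probe (-0.41, limma adjusted p = 0.00187). In green alone the 1 call was another probe, Mef2d A_51_P504672, and neither downstream probe passed. Leaving out 1 array gave 1 to 2. AP5 against Ro25 had 1 call, and 0 with marked spots kept, the deposited ratios, scaling, green alone, slide as a fixed block and the mean of probes, and 0 to 1 with 1 array left out. AP5 against NVP had 0, and 1 with slide as a random block, with the astrocyte covariate or with some arrays left out (0 to 1). In the green reference channel Mef2d A_51_P394676 gave -0.05 against vehicle and -0.03 against Ro25, Mef2d A_51_P504672 gave 0.13 and Mef2a A_52_P175157 gave 0.06; with slide as a fixed block Mef2a A_52_P175157 gave 0.12. The causes were not tested.

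Probe differences that lost their call were, in the deposited ratios, Mef2a A_52_P175157 less A_52_P290579 at -0.31 (AP5) and -0.16 (NVP) and less A_52_P311841 at -0.36 and -0.22, and Mef2d A_51_P504672 less A_51_P394676 at -0.43 (AP5); in red alone they were -0.19 (A_52_P175157 less A_52_P311841, NVP) and -0.23 (Mef2d, AP5). With 1 array left out, an alternative added after seeing the data, the NVP differences ran from -0.32 to -0.25 and from -0.29 to -0.22, and that of Mef2d A_51_P504672 less A_52_P334052 with AP5 from -0.29 to -0.17. With slide as a fixed block 0 members were called in each of the 3 lists; the MADS-box count of 2 was 1 in red alone, with the replicate block and without the 4 arrays low in astrocyte markers, and 0 to 2 with 1 array left out.

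The replicate numbers did not pair the arrays: same-numbered AP5 and vehicle arrays correlated at -0.44 to 0.09 after removal of group means. The replicate block left 1 call with AP5 against vehicle, with Mef2a A_52_P175157 at an adjusted p of 0.0528 in limma. Slide and scan coincide. AP5 shares no slide with vehicle or Ro25, and NVP shares none with vehicle, which the number of arrays does not repair. The Mef2c probe below background was not tested.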
